A study of Sus scrofa with 24 samples.

Results

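Neurons, glia and interstitial cells of Cajal of the gut wall were followed through 7 marker genes in gut tissue of sows, from ileum and colon, under diets with low or high crude fibre and with or without N-carbamylglutamate. The 7 are KIT, ANO1 and ETV1 for interstitial cells of Cajal, RET, CHAT and VIP for enteric neurons, and S100B for glia. They are 7 of 8 names that were looked up among the 20674 genes of the count table. The other, ELAVL4, a neuronal RNA-binding protein, was not analysed here. The animals were pregnant sows that received 1 of 4 diets from breeding on, in a trial of 114 days with 100 sows per diet. The LF diet held 3.73% crude fibre, and the LN diet was LF with 0.05% N-carbamylglutamate (NCG). The HF diet held 7.46% crude fibre, and HN was HF with 0.05% NCG. NCG is an analogue of N-acetylglutamate, which activates the first enzyme of the urea cycle. Each diet had 3 ileum and 3 colon libraries of poly(A) RNA, 24 in all, from bulk tissue. The labels name no genotype, breed or age and do not say which layers of the gut wall were taken. They also do not say whether libraries came from separate sows, or whether ileum and colon came from the same sows. All p-values therefore measure the spread between libraries as labelled.

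The enteric nervous system is a network of neurons and glia that lies in plexuses between and beneath the muscle layers and directs motility, secretion and blood flow. Interstitial cells of Cajal sit among smooth muscle cells, where they generate the slow waves that pace contraction and relay signals from motor neurons. Acetylcholine is the main excitatory transmitter of the gut, and vasoactive intestinal peptide (VIP) is an inhibitory and secretory one. Glia surround the neurons, and some extend into the mucosa.

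KIT, the receptor for stem cell factor on which Cajal cells depend, lies on chromosome 8 at 41402334 to 41492306 of Sscrofa11.1. ANO1, the calcium-activated chloride channel of their pacemaker current, lies on chromosome 2 at 3202269 to 3373409, and ETV1, a transcription factor downstream of KIT, on chromosome 9 at 83322818 to 83567136. RET, the signalling receptor for the GDNF family of ligands, lies on chromosome 14 at 61305818 to 61361416. CHAT, which makes acetylcholine, lies further along chromosome 14 at 90117464 to 90167611. VIP lies on chromosome 1 at 13611786 to 13620250, and S100B, a calcium-binding protein of glia, at 189784 to 197338 of a scaffold not placed on a chromosome. Over the 24 libraries the genes held between 248 counts (CHAT) and 21232 counts (VIP), so CHAT was the gene most limited by depth.

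Libraries held 11951729 to 19896941 counts in the ileum and 14843272 to 18575695 in the colon. Their muscle content differed widely. The mean log2 CPM of 15 smooth muscle genes, such as MYH11 and ACTG2, ranged from 5.69 to 10.57 in the ileum and from 5.98 to 11.89 in the colon. CPM are counts scaled to library size, with TMM normalisation. In the colon the libraries fell into 5 that were poor in muscle (LN 3, all HF and HN 3, at 5.98 to 6.71) and 7 that were rich in it (8.95 to 11.89). Epithelial content varied in the colon too. The sum over 8 epithelial genes was 126 CPM in colon LF 2, against a colon median of 7369. The lowest sum in colon HN was 268 CPM, while colon LN held 5102 to 8929 and colon HF 8406 to 12228. The part of epithelial content in the results was not tested. Ileum LN 3 stood apart from the other ileum libraries. Its adipocyte genes ADIPOQ and PLIN1 reached 1126 and 332 CPM, against at most 11.45 and 4.31 in the other ileum libraries. Its mean over 14 pan-neuronal genes was 0.13 log2 CPM, against 1.42 to 2.84 in the other ileum libraries. Differences between tissues and NCG effects in the ileum are given with and without it where it moved them.

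**Figure D1:**
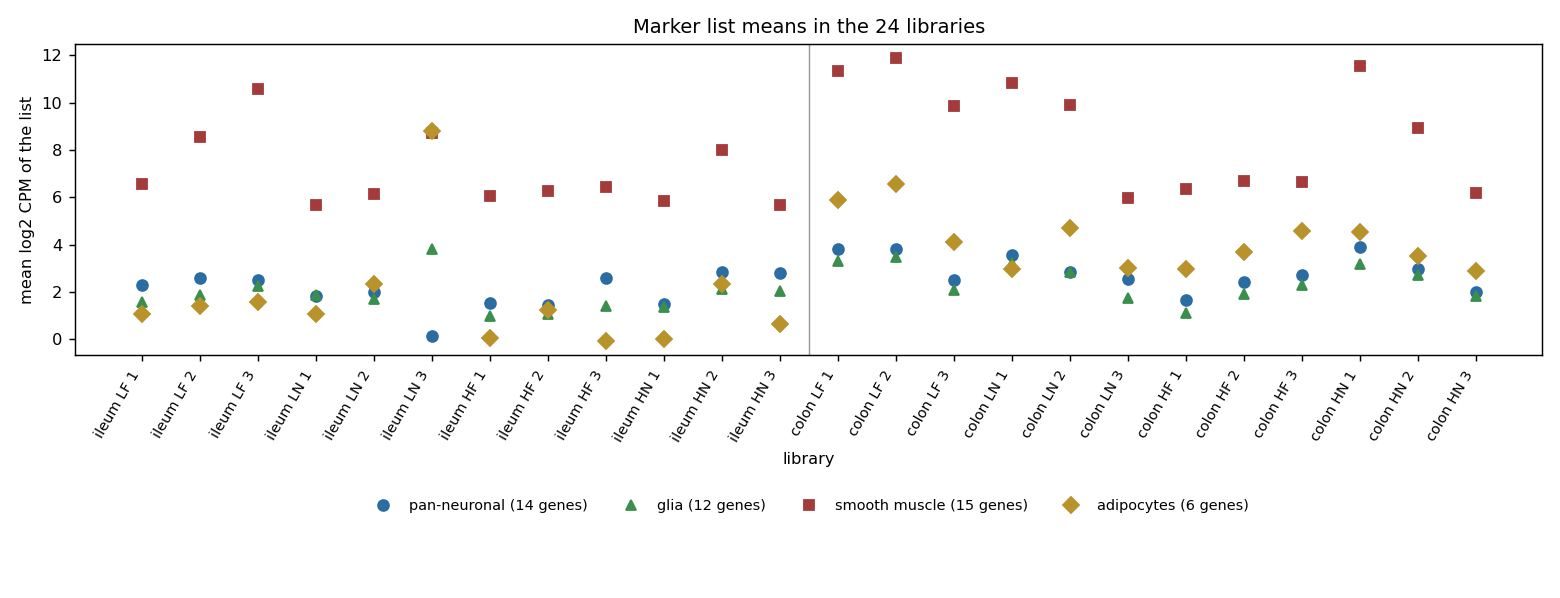
Mean log2 CPM of 4 marker lists (y axis) in each of the 24 libraries (x axis), 1 symbol per list and library. Smooth muscle markers span 5.69 to 11.89, and ileum LN 3 combines the highest adipocyte mean (8.80) with the lowest pan-neuronal mean (0.13).

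Levels were compared between genes per length, as FPKM (the deposited values, scaled by gene length and library total). VIP had the highest median of the 7 in both tissues, at 17.9 FPKM in the ileum (0 to 33.6) and 75.6 in the colon (29.9 to 156). S100B or KIT exceeded VIP in ileum LF 3, LN 3, HF 2, HN 1 and HN 2 and in colon HN 1. S100B followed at 12.6 (5.83 to 31.4) and 15.6 (7.19 to 43.7). KIT was close to it, at 11.03 (4.28 to 17.1) and 12.4 (6.84 to 23.8), and the ranges of S100B and KIT overlapped in both tissues. The other genes were lower. ANO1 had medians of 3.05 (1.14 to 15.3) and 6.19 (1.17 to 20.1). ETV1 had 1.73 (1.02 to 5.31) and 2.50 (0.851 to 8.77), a range shared with RET at 1.66 (0.287 to 2.96) and 1.68 (0.635 to 3.76). CHAT was lowest, at 0.152 (0.0630 to 1.05) and 0.318 (0.148 to 0.889).

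**Figure D2:**
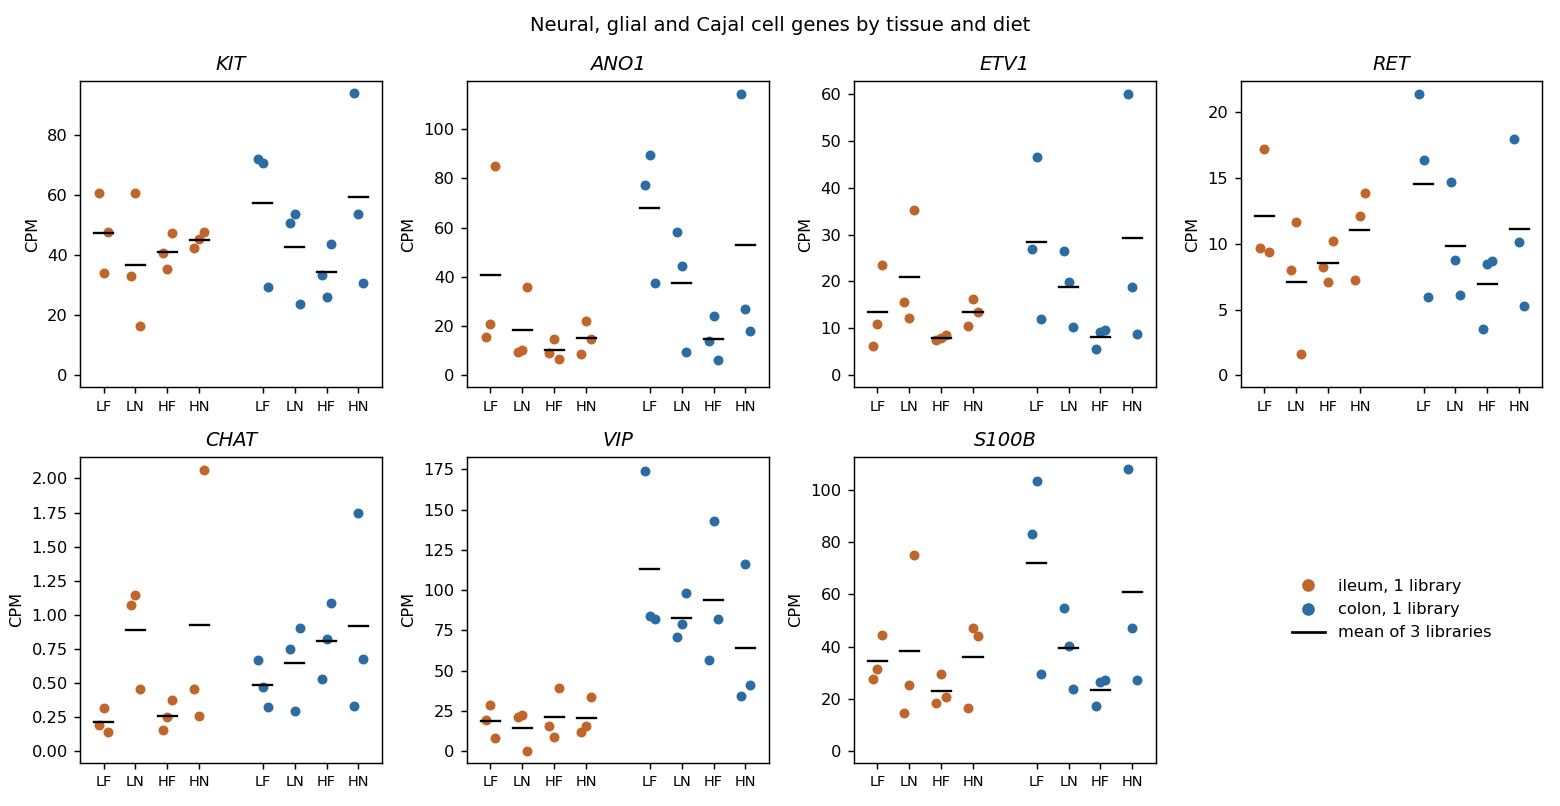
CPM (y axes, linear) of the 7 genes in each library by tissue and diet, with a bar at the mean of 3 libraries. VIP is higher in the colon under every diet, the diet groups of the other genes mostly overlap, and ileum LN 3 is at 0 for VIP.

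The clearest difference between the tissues was in VIP. In the ileum VIP measured 19.1, 28.9 and 8.32 CPM in the LF libraries, 21.2, 22.4 and 0 in LN, 15.6, 8.96 and 39.0 in HF, and 11.9, 15.8 and 33.5 in HN. In the colon it measured 174, 83.7 and 82.3 CPM in LF, 71.0, 78.8 and 97.9 in LN, 56.6, 143 and 82.2 in HF, and 34.2, 116 and 40.8 in HN. The 3 colon libraries lay above the 3 ileum libraries under each of the 4 diets, and 11 of 12 colon libraries exceeded every ileum library. The remaining colon library was HN 1. VIP was 4.67-fold higher in the colon, a log2 difference of 2.22 ± 0.50 (SE) with an adjusted p of 0.00276 by edgeR's quasi-likelihood test over all 24 libraries. By that test 28.4% of all 15675 genes differed between the tissues. Adjusted p-values here are Benjamini-Hochberg values over all genes tested, and 0.05 was the threshold. Without ileum LN 3 the difference was 2.08 with an adjusted p of 0.000139 by the same test. With the smooth muscle mean as a covariate it was 2.70 (adjusted p 0.00416). The libraries labelled ileum were not uniform. FABP6, the bile acid binding protein of the ileal epithelium, measured 827 to 8416 CPM in LF 1, HF 2 and HN 2. It measured at most 38.0 CPM in the other ileum libraries. Whether the ileum libraries came from the same stretch of gut was not tested, and this limit holds for every difference between the tissues. In bulk tissue, more cells of a type and more RNA per cell cannot be told apart, here and in every result that follows.

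VIP was the only 1 of the 7 genes to pass in that comparison by edgeR, and DESeq2 called 2, VIP and ANO1, with 5347 calls over all genes against 4453 by edgeR. ANO1 was 2.03-fold higher in the colon (log2 1.02 ± 0.40, edgeR adjusted p 0.0662). Its difference passed when ileum LF 3, ileum LN 3, colon LN 3 or colon HN 3 was left out (log2 1.31, 1.25, 1.14 and 1.12, edgeR adjusted p 0.0178 to 0.0396). It was -0.015 with the smooth muscle covariate. The remaining differences, on the log2 scale, were 0.58 ± 0.36 for CHAT, 0.52 ± 0.31 for ETV1, 0.48 ± 0.29 for S100B, 0.16 ± 0.23 for KIT and 0.11 ± 0.30 for RET, with edgeR adjusted p-values of 0.227 to 0.810. S100B passed only without ileum LN 3 (0.71, edgeR adjusted p 0.0491) and CHAT only without ileum HN 3 (0.93, edgeR adjusted p 0.0438). Mean KIT was 42.6 CPM over the ileum libraries and 48.5 CPM over the colon libraries, and mean RET 9.69 and 10.6 CPM.

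Further genes linked with neurons, glia and Cajal cells gave a mixed picture. They were 63 genes in 7 lists, of which 61 were tested. The lists also hold signalling partners, such as KITLG and GDNF, and some of their genes are used by other cells too. By edgeR 23 of the 61 were higher and 9 lower in the colon. Of all tested genes 12.5% were higher and 15.9% lower. With the smooth muscle covariate the counts were 8 and 8, and without ileum LN 3 they were 28 and 9. Some of these genes passed the filter on low counts only through the tissue where they were high, as given below. Among 14 pan-neuronal genes 5 rose and none fell, with a median of 0.82 against -0.03 for all genes (log2). The neurofilaments NEFM (2.91) and NEFL (2.02) and the synaptic protein SNAP25 (1.07) were among them, and so was HAND2 (2.61), a transcription factor that mesenchymal cells also use. NEFM and NEFL kept 2.88 and 1.87 with the smooth muscle covariate (edgeR adjusted p 0.000168 and 0.00232). Of 7 cholinergic genes, the nicotinic receptor subunit CHRNA3 (1.25) and the muscarinic receptor CHRM2 (2.71), which smooth muscle also carries, rose, and the median was 1.05. Neither passed with the covariate.

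Transmitter and peptide genes moved in both directions. Of 13 tested, 3 were higher in the colon, ADCYAP1 (4.09), GRP (3.70) and GAL (2.09), and 5 were lower, CALB1 (-4.92), PENK (-3.48), SST (-2.97), NPY (-2.73) and TH (-1.70). In ileum LF 1, HF 2 and HN 2, however, PENK was low too, at 0.334, 0.188 and 0.579 CPM. The other ileum libraries held 19.4 CPM or more. ADCYAP1 and GRP did not pass the filter on low counts in the fit of the ileum libraries. CALB1, NPY and TH did not pass it in the fit of the colon libraries. They entered the tissue test only through the tissue where they were high, so their differences are a description. ADCYAP1 encodes PACAP, a relative of VIP, and GAL encodes galanin. SST encodes somatostatin, a product of enteroendocrine cells as well as neurons. Of 8 enteroendocrine genes, 4 were lower in the colon and 0 higher by edgeR, while 3 had a positive difference, GCG (2.44) among them. SCT, among the lower ones, passed the filter on low counts only through the ileum. Which cells the SST difference came from was not tested. The call for GRP was lost without colon HF 3, without colon HN 1 and with the smooth muscle covariate. VIPR2, a receptor for VIP and PACAP, was higher in the colon by 1.94 (edgeR adjusted p 0.0254), but not without colon HN 1 or with the smooth muscle covariate.

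**Figure D3:**
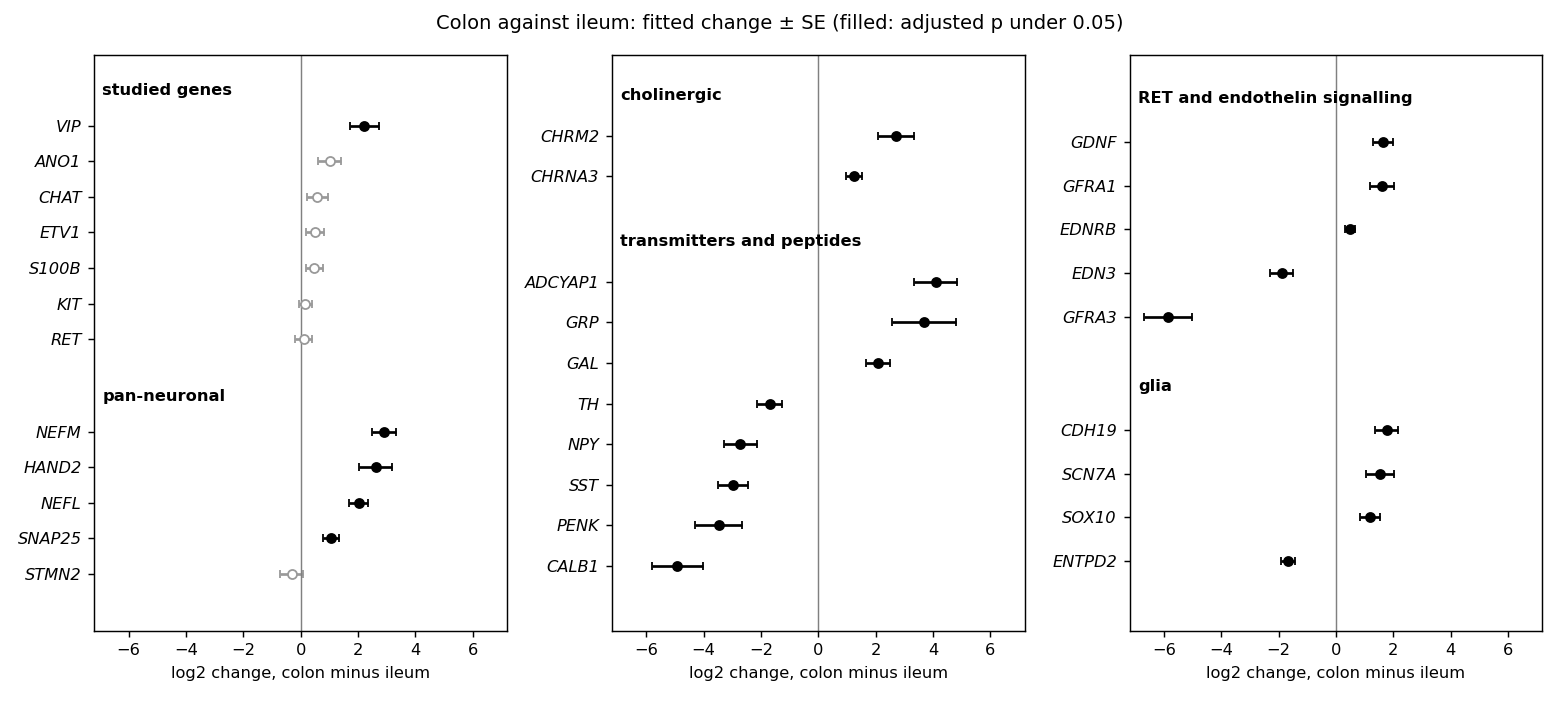
Log2 difference, colon minus ileum, ± SE from edgeR for the 7 genes and the genes of 5 lists that the text names, mostly chosen because they passed, with filled points where the adjusted p was under 0.05. VIP (2.22) is the 1 filled point among the 7, and the peptide genes lie on both sides of 0. ADCYAP1, GRP, CALB1, NPY and TH passed the filter on low counts only through the tissue where they were high.

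ANO1, a Cajal cell gene, varied with the muscle content of the library. ANO1 measured 15.8, 21.0 and 85.0 CPM in the ileum LF libraries, 9.51, 10.4 and 35.8 in LN, 8.99, 14.8 and 6.80 in HF, and 8.79, 22.1 and 14.9 in HN. Colon values were 77.2, 89.4 and 37.4 CPM in LF, 58.1, 44.5 and 9.35 in LN, 14.1, 24.3 and 6.33 in HF, and 114, 26.9 and 18.0 in HN. The highest ANO1 in each tissue, ileum LF 3 and colon HN 1, came from libraries with smooth muscle means of 10.57 and 11.54. Across the 12 ileum libraries, log2 CPM of ANO1 correlated with the smooth muscle mean at r = 0.91 (permutation p 0.00018, adjusted 0.0036 over 20 such correlations) and rho = 0.72 (permutation p 0.01066, adjusted 0.0711). Within diets r was 0.88, and without the 2 libraries farthest from the median it was 0.71. In the colon the correlation was taken over the 7 muscle-rich libraries alone, where r was 0.96 (exact permutation p 0.00179, adjusted 0.0179) and rho 0.96 (adjusted 0.0556), and r without the 2 farthest libraries was 0.95.

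ETV1 ranged from 6.25 to 35.1 CPM in the ileum and from 5.59 to 59.98 in the colon. Its highest ileum value was in LN 3, and its highest colon values were in HN 1 (59.98) and LF 2 (46.6). With the smooth muscle mean it had r = 0.62 in the ileum, which dropped to 0.13 without the 2 farthest libraries, LF 3 and LN 3, and so rested on them. Within diets, with all ileum libraries, r was 0.93. In the 7 muscle-rich colon libraries r was 0.81 (exact permutation p 0.0282, adjusted 0.0786), and 0.97 within diets. KIT measured 16.4 to 60.6 CPM in the ileum and 23.9 to 94.2 in the colon, with its lowest value in ileum LN 3 and its highest in colon HN 1. Its r with smooth muscle was -0.28 in the ileum (permutation p 0.361) and 0.65 in the 7 colon libraries (exact permutation p 0.113). Within diets these were -0.52 and 0.86. KIT also marks mast cells. Of the mast cell genes, CPA3 was at 0 counts in 12 of 12 ileum and 11 of 12 colon libraries, while MS4A2 measured 9.06 to 30.6 CPM in the ileum and 9.62 to 26.8 in the colon. KIT and the mast cell mean had r = 0.27 in the ileum (permutation p 0.417) and -0.53 in the colon (permutation p 0.0800). Within diets these were 0.60 and -0.51.

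**Figure D4:**
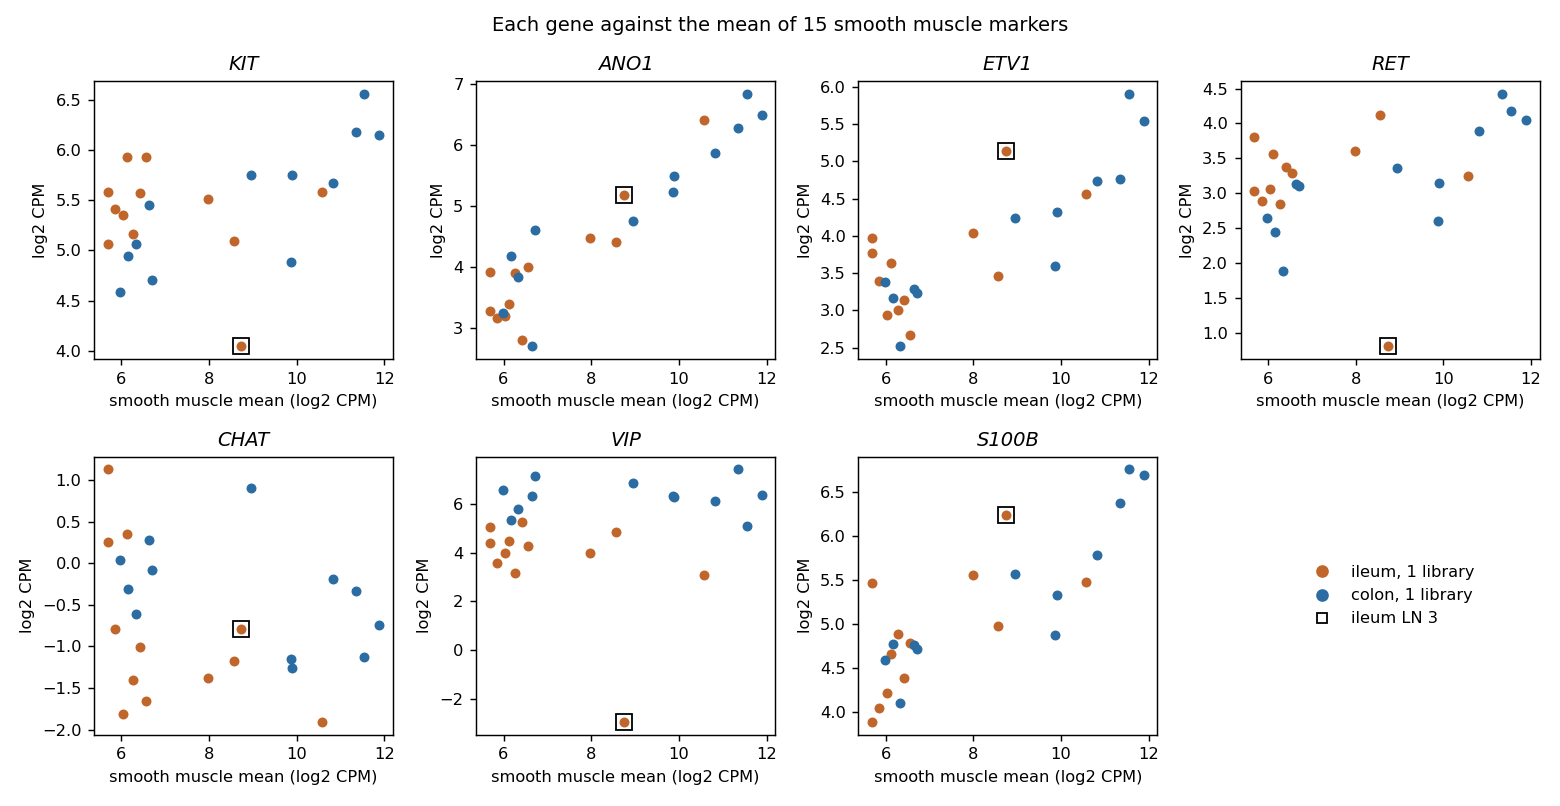
Log2 CPM of each gene (y axes) against the mean log2 CPM of 15 smooth muscle genes (x axes), 1 point per library, with ileum LN 3 boxed. ANO1 rises with the muscle mean in both tissues (r 0.91 in the ileum and 0.96 in the 7 muscle-rich colon libraries), and VIP does not.

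Other genes linked with Cajal cells were also compared between the tissues. Of 5, THBS4 (5.15), CACNA1H (1.84) and LRIG1 (0.84) were higher in the colon and PRKCQ (-0.97) was lower by edgeR, and the list's median was 0.84. THBS4 encodes a matrix protein and CACNA1H a T-type calcium channel. PRKCQ is a kinase that T cells also use, and its call was lost in 14 of 24 omissions of 1 library. With the smooth muscle covariate THBS4 was 3.43 and CACNA1H 0.54 (edgeR adjusted p 1.55e-06 and 0.0400), and LRIG1 did not pass. Smooth muscle genes themselves were higher in the colon, 12 of 15 with a median of 2.12. Without colon HN 1, 2 of 15 passed. The part of muscle content in the tissue differences was not tested beyond the covariate.

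S100B, the glial gene, was set beside both muscle and fat genes. It measured 27.5, 31.5 and 44.4 CPM in the ileum LF libraries, 14.7, 25.3 and 75.2 in LN, 18.5, 29.5 and 20.8 in HF, and 16.4, 47.0 and 44.2 in HN. In the colon it measured 83.0, 103 and 29.4 CPM in LF, 54.9, 40.1 and 23.9 in LN, 17.1, 26.3 and 27.0 in HF, and 108, 47.3 and 27.3 in HN. The 3 highest colon libraries, HN 1, LF 2 and LF 1, were also the 3 richest in smooth muscle, and the tissues overlapped under every diet. S100B and the smooth muscle mean had r = 0.66 in the ileum (permutation p 0.0196, adjusted 0.0783) and 0.84 in the 7 muscle-rich colon libraries (exact permutation p 0.0282, adjusted 0.0786). Within diets these were 0.71 and 0.94. Fat cells also make S100B. Its r with the adipocyte mean in the ileum was 0.72 (permutation p 0.00313, adjusted 0.0209) with rho = 0.69 (adjusted 0.0766), and 0.52 without ileum LN 3 and HF 3. In the colon it was 0.69 (permutation p 0.0129, adjusted 0.0642), and 0.40 without LF 1 and LF 2. Of the S100B correlations, r with the adipocyte mean in the ileum was the 1 that passed after adjustment.

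Of 12 tested glial genes, 6 were higher in the colon and 1 was lower, with a median of 1.01, and without ileum LN 3 the counts were 9 and 1. They included the cadherin CDH19 (1.76) and the transcription factor SOX10 (1.18). ENTPD2, an ectonucleotidase, was the lower 1 (-1.68, edgeR adjusted p 6.62e-05). Neither CDH19 nor SOX10 passed with the smooth muscle covariate, whereas ENTPD2 did.

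RET measured 9.64, 17.2 and 9.36 CPM in the ileum LF libraries, 8.04, 11.7 and 1.62 in LN, 8.21, 7.08 and 10.2 in HF, and 7.25, 12.1 and 13.9 in HN. In the colon it measured 21.4, 16.4 and 5.95 CPM in LF, 14.7, 8.77 and 6.14 in LN, 3.55, 8.50 and 8.67 in HF, and 18.0, 10.1 and 5.31 in HN. The groups overlapped between tissues under every diet, and ileum LN 3 was the lowest of all 24. Ligands and co-receptors of RET, and the endothelin pair that guides neural crest cells, were compared alongside it. Of 7 tested, GDNF (1.64), its co-receptor GFRA1 (1.60) and EDNRB (0.48) were higher in the colon, and GFRA3 (-5.87), the artemin co-receptor, and EDN3 (-1.89) were lower, with a median of 0.34. In ileum LF 1, HF 2 and HN 2, however, GFRA3 was as low as in the colon, at 1.15, 0.752 and 1.03 CPM. The other ileum libraries held 27.2 CPM or more. GDNF and GFRA1 did not pass with the smooth muscle covariate, GFRA3 and EDN3 did, and the call for EDNRB was lost in 14 of 24 omissions of 1 library.

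CHAT was near the limit of the data. It held 2 to 35 counts per ileum library and 5 to 28 per colon library. Its ileum values were 0.19, 0.32 and 0.14 CPM in LF, 1.07, 1.15 and 0.45 in LN, 0.16, 0.25 and 0.37 in HF, and 0.45, 0.26 and 2.06 in HN. The highest ileum values were in LN 1, LN 2 and HN 3, while HN 2 lay among the libraries without NCG. Of the ileum libraries only LN 1, LN 2 and HN 3, all with NCG, held at least 10 counts, so the gene passed the filter on low counts only through the groups where it was high, and its NCG values are a description. The NCG effect in the ileum was 3.76-fold (log2 1.91 ± 0.57) and did not pass (edgeR adjusted p 0.0889, and 0.111 with no filter). In the colon the NCG effect was 0.30 ± 0.46. The difference of the NCG effects, colon minus ileum, was -1.64 ± 0.73 (edgeR adjusted p 0.9999). CHAT is also made by tuft cells of the epithelium, and its r with the mean of tuft cell genes was 0.30 in the ileum (permutation p 0.343) and 0.47 in the colon (permutation p 0.122).

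For the other genes the ileum gave no NCG effect past the threshold. By edgeR 0 of 7 passed, where 5.85% of all 15103 tested genes did, and 1, CHAT, had an unadjusted p under 0.05, as 21.5% of all genes did. DESeq2 called 1, CHAT (adjusted p 0.0346), which remains a description because CHAT passed the filter only through the groups where it was high. The log2 effects were 0.65 ± 0.36 for ETV1, 0.37 ± 0.40 for S100B, -0.15 ± 0.27 for KIT, -0.22 ± 0.40 for RET, -0.23 ± 0.83 for VIP and -0.32 ± 0.51 for ANO1. Without ileum LN 3 they were 0.34 for ETV1, -0.11 for S100B, 0.025 for KIT, 0.015 for RET, 0.061 for VIP and -0.78 for ANO1, so that 4 of the 6 changed sign. With the smooth muscle covariate ETV1 was 1.02 (edgeR adjusted p 0.00847). ETV1 without the covariate measured 15.5, 12.3 and 35.1 CPM in LN and 10.4, 16.3 and 13.6 in HN, against 6.25, 10.9 and 23.4 in LF and 7.51, 7.89 and 8.66 in HF, so only LN 3 lay above all libraries without NCG. Of 56 tested genes in the 7 neuronal, glial and Cajal cell lists, 2 rose and none fell, where 5.85% of all genes passed, whereas 4 rose with the smooth muscle covariate and 0 without ileum LN 3. The 2 were SCN7A, a sodium channel of glia and neurons (2.24 ± 0.58, edgeR adjusted p 0.0499), and KITLG, the ligand of KIT (0.86 ± 0.20, edgeR adjusted p 0.0312). Without ileum LN 3 they were 1.47 and 0.72 (edgeR adjusted p 0.0849 and 0.0649). SCN7A also lost its call in 9 other omissions of 1 library and KITLG in 6 others.

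Fibre gave no call among the 7 genes. In the ileum 0 of 7 passed by edgeR and by DESeq2, 1 (ANO1) had an unadjusted p under 0.05 where 5.26% of all genes did, and 0% of 15103 genes passed by edgeR. ANO1 had a fibre effect of -1.18 ± 0.52 there (edgeR adjusted p 0.802), which was -0.57 without LF 3 and -0.06 with the smooth muscle covariate. In the colon 0 of 7 passed by either tool, and 0% of 15075 genes passed by edgeR. There 0 of the 7 had an unadjusted p under 0.05 by edgeR, where 4.59% of all genes did. The colon effects ran from -0.85 ± 0.58 for ANO1 to 0.62 ± 0.46 for CHAT. Of 57 listed neuronal, glial and Cajal cell genes tested in the colon, 50 had a negative and 7 a positive fibre effect, none past the threshold. These signs are not independent, since the genes were measured in the same libraries. The median fibre effect over all genes there was 0.0009 (log2). The smooth muscle mean was 9.87 to 11.89 in colon LF and 6.33 to 6.71 in colon HF, without overlap.

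NCG also gave no call in the colon. By edgeR and by DESeq2 0 of 7 passed, and 0% of 15075 genes passed by edgeR. By edgeR 0 of the 7 had an unadjusted p under 0.05, where 12.4% of all genes did. DESeq2 did call other genes here, as given below. The log2 effects lay between -0.49 ± 0.37 for VIP and 0.63 ± 0.49 for ETV1.

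The NCG effect under high fibre minus that under low fibre, the interaction, was largest for 3 colon genes. It was 2.70 ± 1.17 for ANO1, 2.45 ± 0.99 for ETV1 and 2.25 ± 0.81 for S100B on the log2 scale. By edgeR and by DESeq2 0 of 7 passed, these 3 had an unadjusted p under 0.05 with edgeR adjusted p-values of 0.327 to 0.328, and 0% of 15075 genes passed by edgeR. Over all genes 15% had an unadjusted p under 0.05 for this interaction. The 15 smooth muscle genes had a median interaction of 5.39, against 0.03 for all genes, and with their mean as a covariate the interactions were 0.17 for ANO1, 0.0015 for ETV1 and 0.43 for S100B. Those of KIT and RET, 1.23 and 1.26 without the covariate, were -0.27 and -0.34 with it. Of the 57 listed genes 50 had a positive and 7 a negative interaction, and these signs are not independent either. In the ileum 0 of 7 interactions passed by either tool, and 0% of 15103 genes passed by edgeR. There 0 of the 7 had an unadjusted p under 0.05 by edgeR, where 4.45% of all genes did. For none of the 7 did a difference of the fibre or NCG effect between the tissues pass by edgeR or DESeq2, and 0% of 15675 genes passed for each by edgeR. For fibre 0, and for NCG 1 (CHAT), had an unadjusted p under 0.05, as did 2.79% and 2.99% of all genes.

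Ileum LN 3 was unusual in the nervous system genes themselves. VIP was at 0 of 15884720 counts, where 3 counts would be 0.189 CPM. STMN2, a protein of growing axons, measured 0.970 CPM against an ileum median of 36.5. RET (1.62 CPM) and KIT (16.4 CPM) had their lowest ileum values there. S100B (75.2 CPM) and ETV1 (35.1 CPM) had their highest, as did the glial genes SOX10 (7.57 CPM) and SCN7A (31.8 CPM). The glial mean was 3.82 log2 CPM, against 0.99 to 2.25 in the other ileum libraries.

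The 7 genes were also compared with each other within each tissue. Of 42 pairwise correlations of log2 CPM, 21 per tissue, 12 passed on both r and rho after adjustment. All 10 colon pairs among KIT, ANO1, ETV1, RET and S100B were among them, with r from 0.74 (KIT and ANO1) to 0.98 (ETV1 and S100B) over 12 libraries. Without the 2 farthest libraries these 2 pairs had r = 0.58 and 0.95. In the 7 muscle-rich colon libraries the smooth muscle mean had r between 0.65 (KIT) and 0.96 (ANO1) with these 5 genes, of which that of ANO1 alone passed after adjustment. For RET it was 0.78 (exact permutation p 0.0450, adjusted 0.1001). The part of muscle content in the correlations was not tested. No colon pair with VIP or CHAT passed. In the ileum ANO1 and S100B (r = 0.77, 0.81 without the 2 farthest) and RET and VIP (r = 0.94, 0.61 without the 2 farthest) passed. The 2 neuronal genes share the low value of LN 3.

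The genes most like each of the 7 were found among 13252 genes by Pearson's r over the 24 libraries, with the tissue means removed. These are descriptions over libraries that share their muscle content. VIP had CBLN2 (0.92), a synaptic organiser, and GAL (0.90) among its nearest genes. Ileum r with VIP was 0.96 for CBLN2 and 0.94 for GAL, and colon r was 0.69 and 0.68. RET was most like INA (0.94), NEFH (0.93) and CHRNA3 (0.93), of which INA and NEFH are neurofilament proteins. KIT was most like CHRNA3 (0.83), GDNF (0.83) and NR2C2 (0.82). ANO1 was nearest to ZBTB47 (0.96), PKD1 (0.96) and NTN1 (0.95), ETV1 to SMARCA1, PHLDB2 and DDR2 (each 0.97), and S100B to GLT8D2, CRTC3 and LTBP3 (each 0.95). CHAT had weaker matches in CPD (0.84), KNG1 (0.79) and COLCA2 (0.77).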

How the data were processed

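Per the submitters' processing notes the authors used fastp 0.22.0, HISAT2 2.1.0, HTSeq 0.9.1 and Sscrofa11.1, and settings are not given in the sources used here. The deposited table holds raw whole read counts per gene, FPKM values made by the authors from the counts (used only to set levels of different genes side by side), and per the file headers gene length in bases, another unit of the deposited table. Whether strand was used in counting is not stated. Positions come from the deposited table. None of the 7 genes overlaps another gene in it.

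The tests were run with edgeR 4.0.16 in R 4.3.3, using filterByExpr (minimum count 10), TMM and quasi-likelihood F-tests, in a model of 4 diets per tissue and one of 8 groups for tissue comparisons, with Benjamini-Hochberg adjustment over all genes and a threshold of 0.05. Fibre, NCG and tissue effects average over the other factors. DESeq2 1.42.0 was an alternative. Log2 CPM used a prior count of 2. Correlation p-values are two-sided, from 100000 permutations or, for 7 libraries, exact. Scripts were tested on simulated data. The genes and lists were chosen with earlier results of these data known. Genes named were the 7, the 3 most like each, up to 4 per list (called genes with the smallest adjusted p) and fixed defining markers. Listed genes named beyond these, STMN2, GRP, PENK, NPY, TH, EDNRB and SCN7A among them, were chosen after their values were seen, as was the split of colon libraries by muscle. Some listed genes are not reported here. GFRA2 had several entries and was left out, and TUBB3, TPSB2, TPSAB1 and CMA1 were not analysed here.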

Additional observations from a re-analysis of the deposited data

How the results depend on the processing

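Over 1344 refits of 63 results for the 7 genes, 1228 kept direction and side of the threshold, 10 came to pass it, none lost a call and 106 changed sign, none of them a called value. VIP, colon against ileum, passed in every refit (log2 2.03 to 2.44 and adjusted p 0.000139 to 0.00698 with 1 library left out). The number of the 7 genes called for the ileum NCG effect was 0, 1 by DESeq2, 1 with the smooth muscle covariate and 0 to 1 with 1 library left out. The calls by DESeq2 and with 1 library left out were for CHAT, whose NCG values in the ileum are a description. For colon against ileum it was 1, 2 by DESeq2 and 1 to 3 with 1 library left out. By DESeq2 the calls over all genes were 1 for ileum fibre, 1812 for ileum NCG (884 by edgeR), 26 for the ileum interaction, 21 for colon fibre, 497 for colon NCG, 67 for the colon interaction, and 5 and 10 for the tissue differences of fibre and NCG. By edgeR, 550, 514 and 541 genes passed for ileum NCG without ileum LF 2, HF 1 and HF 3, and 292 and 2 for colon NCG without colon LF 2 and HN 1. The labels tie no number to a sow or day. Same-numbered libraries correlated at -0.517 to 0.702 in the ileum and -0.503 to 0.809 in the colon (8 and 7 of 18 pairs over 0.1), and those of the same diet and number in both tissues at -0.368 to 0.307 (5 of 12 over 0.1), so pairing by number was not shown, and whether the tissues share sows is not known. With a replicate block 665 genes passed for ileum NCG and 3957 (3001 with diet and number as the block, an alternative added after seeing the data) of 4453 for colon against ileum, and the same number of the 7 genes. Of the 61 listed neuronal, glial and Cajal cell genes, 19 were then higher and 8 lower in the colon with number as the block, and 10 and 7 with diet and number.

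Signs changed with the replicate block for ileum fibre CHAT (-0.015), the ileum interaction of ETV1 (-0.0019) and colon NCG RET (-0.043), and with the block of diet and number for the tissue difference of fibre in ANO1 (-0.29) and ETV1 (-0.23). With the smooth muscle covariate they changed for ileum fibre (KIT -0.15, ETV1 0.028, RET -0.17, CHAT -0.38, VIP -0.24, S100B 0.25), ileum NCG (ANO1 0.15), the ileum interaction (ETV1 -0.82, CHAT 0.40, S100B -0.042), colon fibre (KIT 0.55, ANO1 0.36, ETV1 0.28, RET 0.25, S100B 0.24), colon NCG (RET -0.033), the colon interaction (KIT -0.27, RET -0.34, CHAT 0.21, VIP 0.046), colon against ileum (KIT -0.16, ANO1 -0.015, ETV1 -0.33, RET -0.27, S100B -0.19), and the tissue differences of fibre (S100B 0.021) and NCG (ANO1 -0.055). The cause was not tested.

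With 1 library left out, the ranges that cross 0 were, for ileum fibre, KIT -0.14 to 0.31, RET -0.18 to 0.34, CHAT -0.54 to 0.39, VIP -0.058 to 0.56 and S100B -0.57 to 0.10. For ileum NCG they were KIT -0.42 to 0.025, ANO1 -0.78 to 0.29, RET -0.48 to 0.015, VIP -0.53 to 0.16 and S100B -0.11 to 0.56, and for the ileum interaction ETV1 -0.66 to 0.67, CHAT -1.67 to 0.21 and VIP -0.35 to 1.02. For colon fibre this was KIT -0.38 to 0.0096. For colon NCG they were KIT -0.063 to 0.36, ANO1 -0.14 to 0.77, RET -0.20 to 0.26, CHAT -0.14 to 0.49 and S100B -0.095 to 0.44, and for the colon interaction CHAT -1.06 to 0.17 and VIP -0.87 to 0.36. Between tissues they were RET -0.0052 to 0.25, for the fibre difference ANO1 -0.28 to 0.57, ETV1 -0.38 to 0.45 and S100B -0.63 to 0.083, and for the NCG difference ETV1 -0.61 to 0.23, RET -0.030 to 0.53 and S100B -0.51 to 0.33. CHAT, with 2 to 35 counts per library, was the gene most limited by depth.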

Other observations

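GFRA3, looked at further after its values were seen, fell into separate sets of ileum libraries. It measured 0.752 to 1.15 CPM in LF 1, HF 2 and HN 2, which come from 3 different diets, and 27.2 to 146 CPM in the other 9 ileum libraries. All colon libraries lay between 0.197 and 3.02 CPM. PENK, the precursor of enkephalins, measured 0.188 to 0.579 CPM in the same 3 ileum libraries and 19.4 to 55.3 CPM in the other 9. FABP6, the bile acid binding protein of the ileal epithelium, measured 827 to 8416 CPM in these 3 and at most 38.0 CPM in the rest. RET, for which GFRA3 is a co-receptor, measured 9.64, 7.08 and 12.1 CPM in LF 1, HF 2 and HN 2, inside the range of the other ileum libraries. VIP measured 19.1, 8.96 and 15.8 CPM there, also inside the range of the others.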
